A study of Mus musculus with 25 samples.

Results

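The MS4A genes encode small proteins that cross the membrane 4 times and sit at the surface or in the endosomes of leukocytes. 6 of them were followed here over every array of the series: Ms4a1, Ms4a4c, Ms4a6b, Ms4a6c, Ms4a6d and Ms4a7. They were chosen from results of the same data, because Ms4a6b and Ms4a6c had the strongest rises in induced macrophages labelled Pou2af1 shRNA, and were matched by the platform's gene symbols. The 6 genes are 6 of 18193 genes on the array with a symbol, and they have 13 of its 34945 probe sets with 1 gene symbol. Another 13 genes of the family and of the related Tmem176 pair have 17 probe sets, and they are given for comparison.

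The study profiled engineered mouse cells and the tissues they are meant to resemble on 25 Affymetrix arrays in 10 groups. Induced macrophages (iMac, 2 arrays per group) came from C10, a pre-B cell line, which was converted with 100 nM estradiol in medium holding IL-3 and CSF-1 (10 nM). Before conversion the C10 cells received a lentivirus with a scramble shRNA, an Ebf1 shRNA or a Pou2af1 shRNA and were selected with puromycin. The labels of the last 2 groups do not repeat the conversion conditions. Induced hepatocytes (iHep, 3 arrays) were independent lines made from E13.5 embryonic fibroblasts of C57BL/6J mice with retroviral Foxa1 and Hnf4a. Engrafted iHeps (2 arrays) were GFP-positive cells sorted 12 days after transplantation into the DSS-damaged colon of Rag2gammac-/- mice, which lack mature lymphocytes. The colon group (2 arrays) was colonic crypts of 8-week-old Rag2gammac-/- mice. Fetal liver (2 arrays) was E14.5 C57BL/6J, and adult liver (2 arrays) was C57BL/6J too. The labels of the adult liver conflict: one field gives freshly harvested liver at 8 weeks, another gives hepatocytes isolated with collagenase at 10 weeks. iHeps with a scramble shRNA and with a Cdx2 shRNA (4 arrays each) were transduced with lentivirus, treated with puromycin and cultured for a week.

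MS4A proteins act mainly as partners of other receptors. The beta chain of the high-affinity IgE receptor, Ms4a2, amplifies the signal of that receptor, and Ms4a1 is CD20, the surface protein of mature B cells that therapeutic antibodies bind. Ms4a6d, Ms4a7 and their close relatives are made mainly by monocytes and macrophages, and Ms4a6d pairs with the complement receptor Vsig4. Liver holds resident macrophages, the Kupffer cells, and fetal liver is also the main blood-forming organ of the fetus.

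The members are neighbours on the chromosome. Of 21 family genes that RefSeq places on mouse chromosome 19, Ms4a7, Ms4a4a, Ms4a4c, Ms4a4b, Ms4a6c, Ms4a6b, Ms4a4d and Ms4a6d are consecutive in that order, while Ms4a1 lies 3 positions before Ms4a7. The sequences below are the 250 bases before the annotated start in RefSeq's GRCm38.p6 annotation, 5′ to 3′ in the direction of transcription, for the 4 members that have an entry. They are shown because these 4 members moved most in the arrays labelled Pou2af1 shRNA, and because the windows of a pair of them are nearly alike. Capitals mark matches, on either strand, to GAAANNGAA, the core bound by interferon regulatory factors, or GGAAGT, a core bound by ETS factors. Ms4a7 has a second annotated start, and the entry shown is the upstream one.
Ms4a6c (chr19:11469118-11469367, plus strand): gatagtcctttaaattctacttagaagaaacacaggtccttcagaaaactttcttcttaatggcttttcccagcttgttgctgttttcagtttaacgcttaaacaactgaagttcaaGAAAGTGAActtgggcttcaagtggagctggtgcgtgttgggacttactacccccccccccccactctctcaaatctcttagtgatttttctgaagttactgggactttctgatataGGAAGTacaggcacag
Ms4a6b (chr19:11518309-11518558, plus strand): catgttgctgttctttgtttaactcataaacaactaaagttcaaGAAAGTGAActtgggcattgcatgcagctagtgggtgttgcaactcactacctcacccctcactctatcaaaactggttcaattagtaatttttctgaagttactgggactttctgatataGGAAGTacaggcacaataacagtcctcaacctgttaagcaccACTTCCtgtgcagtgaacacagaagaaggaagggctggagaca
Ms4a4c (chr19:11407411-11407660, plus strand): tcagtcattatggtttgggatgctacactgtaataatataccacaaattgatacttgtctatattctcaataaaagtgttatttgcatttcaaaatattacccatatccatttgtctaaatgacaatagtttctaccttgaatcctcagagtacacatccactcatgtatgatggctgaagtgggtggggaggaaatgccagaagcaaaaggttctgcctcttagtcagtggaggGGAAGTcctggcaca
Ms4a7 (chr19:11336147-11336396, minus strand): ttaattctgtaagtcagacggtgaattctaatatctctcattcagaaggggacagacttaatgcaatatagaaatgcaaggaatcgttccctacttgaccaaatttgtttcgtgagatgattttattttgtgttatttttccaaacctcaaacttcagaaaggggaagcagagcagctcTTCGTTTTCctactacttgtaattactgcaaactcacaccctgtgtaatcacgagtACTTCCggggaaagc

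The Ms4a6c and Ms4a6b promoters share a stretch of 170 aligned bases, of which 152 (89.4%) are identical. It runs from position -175 to -2 in Ms4a6c and from -248 to -71 in Ms4a6b, counted back from the start. Ms4a4c has a similar partner in Ms4a4b, with 114 of 127 aligned bases identical (89.8%). The next pair with a member, Ms4a7 and Ms4a2, aligned over only 27 bases. Within the shared stretch both Ms4a6 promoters hold the same 9 letters, GAAAGTGAA, at -133 to -125 in Ms4a6c and at -206 to -198 in Ms4a6b. The motif GAAANNGAA was found in 4 of the 5 member entries (both starts of Ms4a7, Ms4a6c and Ms4a6b) and in 7.13% of 32851 promoters of this length. These entries are not independent, since both starts of Ms4a7 belong to 1 gene and the Ms4a6 matches lie in the shared stretch. GGAAGT was found in 4 of 5 as well, in all but the second start of Ms4a7, and in 19.7% of all promoters. An octamer, ATGCAAAT, the letters bound by the OCT factors that Pou2af1 assists, was found in 1 of 5 (Ms4a4c, -170 to -163, on the other strand) and in 1.6% of all. TTGCNNAA, a C/EBP core, and CCCNNGGG, an EBF palindrome, were in none of the 5, against 9.56% and 11.8% of all promoters. A match describes the letters in this window and does not show that a factor binds there.

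All values below are log2 signals as the authors normalised them, so a difference of 1 is a 2-fold change. Each array's 40th percentile, between 5.52 and 5.80, was used as the line below which a probe set was called dim. The labels do not say whether arrays of a group came from separate cultures or animals (the iHep lines are called independent), so p-values measure the spread between these arrays, which may be technical. In the iMac arrays the macrophage receptor Csf1r was between 12.99 and 13.31, and 12 to 15 of 16 monocyte and macrophage genes were above the line. The macrophage gene Adgre1 was dim with scramble and Ebf1 shRNA (4.78 to 5.57) and read 7.72 and 7.45 in the arrays labelled Pou2af1 shRNA. The B cell gene list also stayed above the line in 13 of 15 genes. The Kupffer cell gene Vsig4 was at 3.26 to 3.48, while Clec4f, another, was above the line at 5.78 to 6.23. Of 11 Kupffer cell genes 3 or 4 were above the line. The Ebf1 shRNA lowered Ebf1 from 8.31 and 8.38 to 7.41 and 7.21 (-1.04 ± 0.11, adjusted p = 0.00389), and the Cdx2 shRNA changed Cdx2 by -1.16 (adjusted p = 0.00397). Pou2af1 itself read 11.25 and 11.06 with scramble shRNA and 11.34 and 11.26 in the arrays labelled Pou2af1 shRNA, so the targeted gene was not lower there and that label has no support from its target. Engrafted iHep replicate 2 stands apart from replicate 1, with Csf1r at 9.74 against 4.04 and the pan-leukocyte gene Ptprc at 6.17 against 2.94. Adult liver replicate 1 had more leukocyte signal than replicate 2, with Ptprc at 10.96 against 9.39. iHep replicate 1 had Alb at 5.69 against 9.90 and 11.59.

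**Figure D1:**
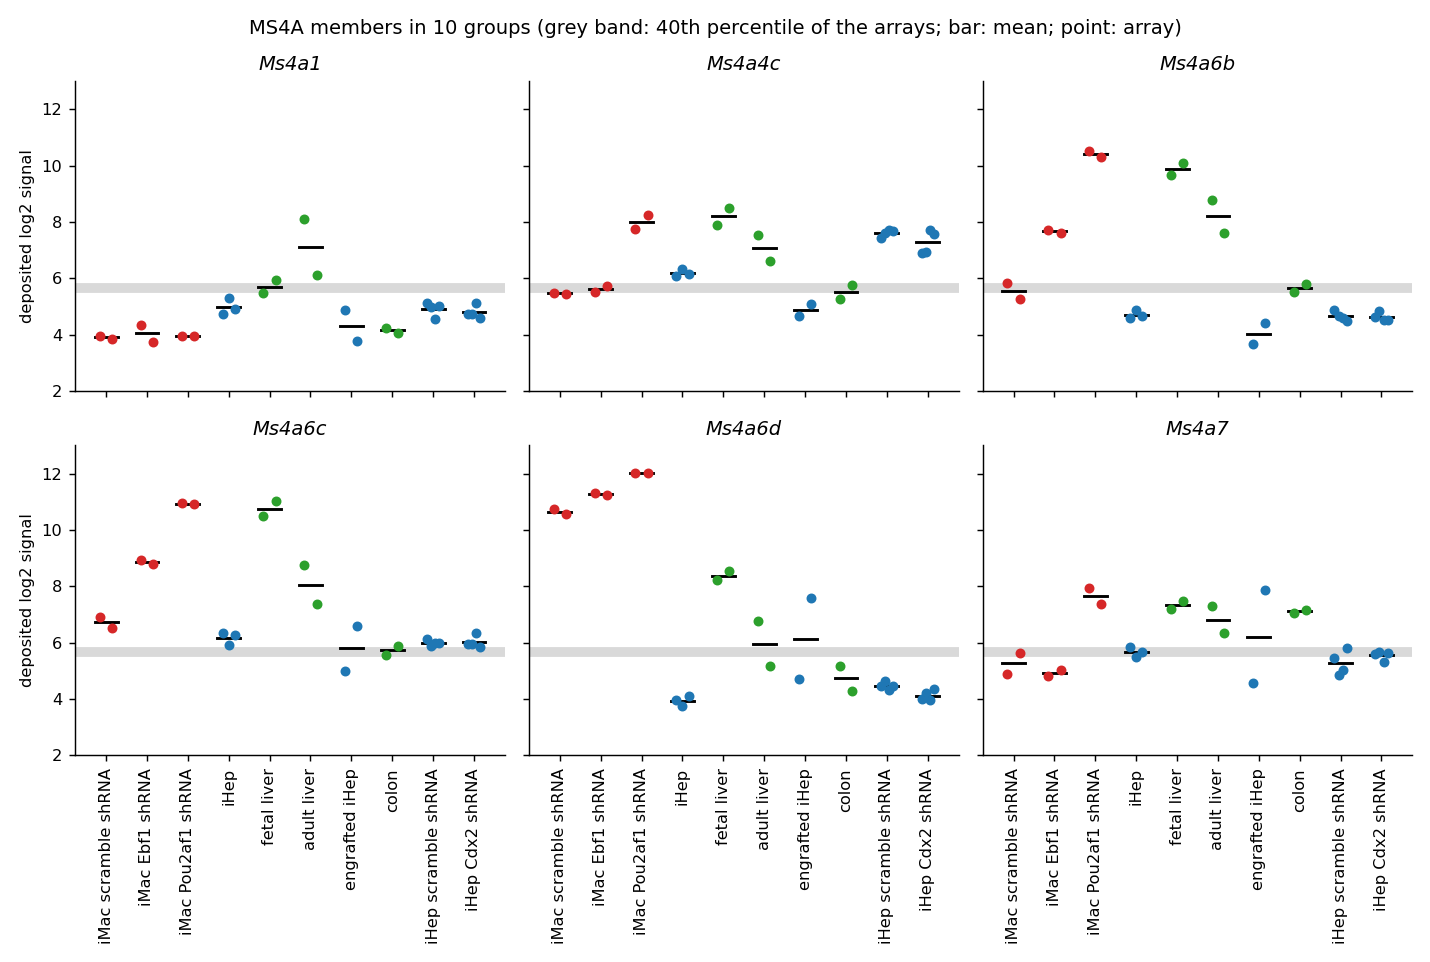
Log2 signal of each member's brightest probe set (y axis) in each of the 10 groups (x axis), with 1 point per array and a black bar at the group mean; red marks iMac groups, blue iHep groups and green tissues, and the grey band spans the 40th percentiles of the arrays, 5.52 to 5.80. Ms4a6b and Ms4a6c are highest in the iMac arrays labelled Pou2af1 shRNA and in fetal liver, Ms4a6d in all iMac arrays, and Ms4a1 is clearly above the band only in adult liver.

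Ms4a6b had the largest difference between iMac groups of the 6 members. It read 5.83 and 5.26 in scramble iMacs, 7.73 and 7.62 with Ebf1 shRNA and 10.51 and 10.30 in the arrays labelled Pou2af1 shRNA. The 3 groups did not overlap, and the scramble arrays lay at the dim line, so the size of a fold against them is uncertain. Over the 10 groups the order ran from the Pou2af1-labelled iMacs (10.40 ± 0.15, SD, n = 2) through fetal liver (9.87 ± 0.31, n = 2), adult liver (8.19 ± 0.82, n = 2) and Ebf1 shRNA iMacs (7.67 ± 0.07, n = 2) to colon (5.66 ± 0.20, n = 2) and scramble iMacs (5.55 ± 0.40, n = 2). The 3 cultured iHep groups had means of 4.62 to 4.71 and engrafted iHeps 4.04 ± 0.54 (n = 2), all dim. Adult liver and Ebf1 shRNA iMacs overlapped, as did colon and scramble iMacs, and the 3 cultured iHep groups.

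Ms4a6c, which lies next to Ms4a6b, had a similar order of groups. It read 6.92 and 6.54 with scramble shRNA, 8.95 and 8.80 with Ebf1 shRNA and 10.96 and 10.91 in the Pou2af1-labelled arrays. Fetal liver, at 10.49 and 11.02, spanned the last of these. Ebf1 shRNA iMacs (8.87 ± 0.11, n = 2) were above adult liver (8.07 ± 1.00, n = 2) without overlap, and scramble iMacs (6.73 ± 0.27, n = 2) were next. The remaining 5 groups lay between 5.74 and 6.18 on average and each overlapped its neighbour.

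Ms4a6d marked the iMac arrays as a class. It read 10.73 and 10.56 with scramble shRNA, 11.30 and 11.23 with Ebf1 shRNA and 12.01 and 12.02 in the Pou2af1-labelled arrays, 3 groups without overlap. Fetal liver was next at 8.21 and 8.54. Adult liver read 6.78 and 5.16 and engrafted iHeps 4.71 and 7.58, so that in each of these groups 1 array was above the dim line and 1 below it. Colon and the cultured iHep groups had means of 3.95 to 4.74, all dim.

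Ms4a7, a macrophage gene, had a narrower range. It read 4.90 and 5.65 with scramble shRNA, 4.83 and 5.03 with Ebf1 shRNA and 7.96 and 7.39 in the Pou2af1-labelled arrays. Fetal liver (7.19 and 7.49) overlapped the last, and colon (7.06 and 7.16) was just under fetal liver. Below fetal liver every group in the order overlapped the next. The engrafted iHep arrays differed most, at 4.56 in replicate 1 and 7.88 in replicate 2.

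Ms4a4c, a relative of the T cell gene Ms4a4b, read 5.49 and 5.45 with scramble shRNA, 5.53 and 5.73 with Ebf1 shRNA and 7.76 and 8.23 in the Pou2af1-labelled arrays. It was also high in fetal liver (7.90 and 8.50), and in contrast to the other members it was high in the cultured iHeps that had received a lentivirus. Ms4a1, the B cell gene, was dim in all 6 iMac arrays (3.75 to 4.35), although these cells derive from a pre-B line. It was above the dim line in both adult liver arrays (8.09 and 6.11) and in 1 of 2 fetal liver arrays (5.49 and 5.93).

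The other probe sets of the members gave a check on these readings. The second Ms4a4c probe set had the wider range, reading 3.35 and 3.61 with scramble shRNA, 3.30 and 3.60 with Ebf1 shRNA and 6.86 and 7.02 in the Pou2af1-labelled arrays. The second Ms4a6d probe set gave 9.65 and 9.55, then 10.51 and 10.51, then 11.24 and 11.08 in the same order of groups. The second Ms4a6b probe set was above the dim line in 1 of 25 arrays, and was highest in the Pou2af1-labelled pair, at 5.63 and 5.42. The second Ms4a6c probe set moved little, from 6.00 and 6.11 with scramble to 6.53 and 6.64 in the Pou2af1-labelled arrays, and it was highest in adult liver (6.61 and 7.08). The third Ms4a6d probe set and the second of Ms4a7 read 2.31 to 3.28 in every array. Both Ms4a4c probe sets and the brightest of Ms4a6d are of the types that may match several transcripts, and whether probes of Ms4a6b and Ms4a6c share signal was not tested, since probe and transcript sequences were not used here.

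**Figure D2:**
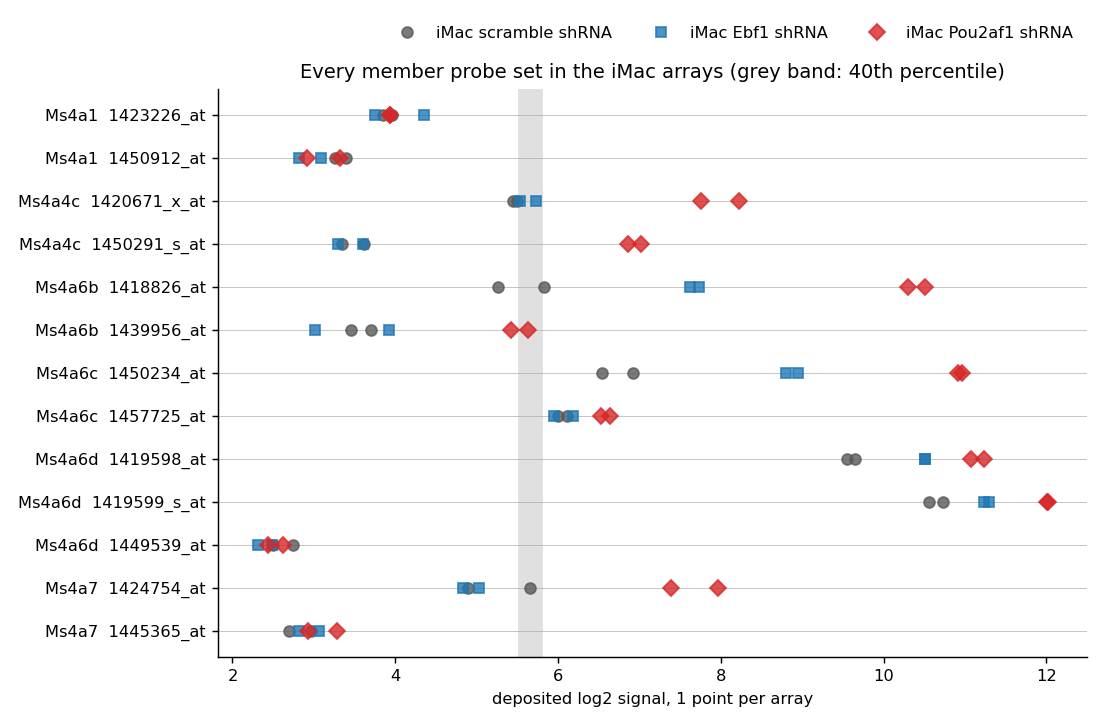
Log2 signal (x axis) of all 13 member probe sets (y axis) in the 6 iMac arrays, 1 point per array; circles are scramble shRNA, squares Ebf1 shRNA, diamonds Pou2af1 shRNA, and the grey band spans the 40th percentiles. For Ms4a6b, Ms4a6c and Ms4a6d the brightest probe sets separate the 3 groups in the same order, while both Ms4a4c probe sets and the brightest of Ms4a7 place the Pou2af1-labelled pair well above the other 4 arrays.

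Because the members were chosen on the comparison of the Pou2af1-labelled arrays with scramble, their differences there are a description and carry no test. On the log2 scale they were 4.85 for Ms4a6b, 4.21 for Ms4a6c, 2.53 for Ms4a4c (3.46 by its second probe set), 2.40 for Ms4a7 and 1.37 for Ms4a6d, and 0.03 for the dim Ms4a1. The Ebf1 shRNA arrays minus the Pou2af1-labelled arrays gave -2.73 for Ms4a6b, -2.06 for Ms4a6c, -2.37 for Ms4a4c, -2.74 for Ms4a7 and -0.75 for Ms4a6d.

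In the comparison of Ebf1 shRNA with scramble shRNA, Ms4a6b, Ms4a6c and Ms4a6d rose. Of the other members, Ms4a1 was too dim to test. Ms4a4c and Ms4a7 passed the filter only because they were bright in the Pou2af1-labelled arrays, the group that chose the members. limma called 14.4% of the 12484 genes tested, 775 higher and 1019 lower. Ms4a6b was higher by 2.13 ± 0.20 (SE, log2, adjusted p = 0.00204), Ms4a6c by 2.15 ± 0.15 (adjusted p = 0.00094) and Ms4a6d by 0.62 ± 0.11 (adjusted p = 0.0162). Ms4a6b was above the dim line in 5 of the 6 iMac arrays, and scramble replicate 2 was dim. It thus passed the filter through arrays with a targeting shRNA, where it was high, so its p-value is no support of its own. Ms4a4c differed by 0.16 ± 0.17 and Ms4a7 by -0.35 ± 0.29, and both are given without a test. The median difference over all genes tested was -0.04. This comparison uses the same scramble arrays as the one that chose the members, so a low reading in those arrays would enter both. The Ms4a6d call did not hold when scramble replicate 2 (adjusted p = 0.0726), Ebf1 replicate 1 (0.0664) or Ebf1 replicate 2 (0.053) was left out. Its second probe set, at 0.91 ± 0.11, passed in the fit of single probe sets (adjusted p = 0.00692). The second Ms4a6c probe set differed by 0.02.

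Among the relatives, Ms4a8a, a gene of intestinal epithelium and of some macrophages, rose from 6.39 and 5.62 to 8.76 and 8.86 (2.80 ± 0.27, adjusted p = 0.00232), and it read 8.07 and 8.49 in the Pou2af1-labelled arrays. Ms4a4d was dim with both, at 5.29 ± 0.03 with scramble and 4.22 ± 0.19 with Ebf1 shRNA (SD, n = 2 each). In the Pou2af1-labelled arrays Ms4a4d was 0.99 above scramble.

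None of 8 genes of leukocyte receptors and their signalling proteins passed the limma test with Ebf1 shRNA. They were the IgE receptor gamma chain Fcer1g, Syk, Btk, Lat, Plcg2, Clec7a, Trem2 and Tyrobp. The nearest were Trem2, a lipid receptor of macrophages (0.51 ± 0.14, adjusted p = 0.0613), and Clec7a, the receptor for fungal glucan (0.40 ± 0.13, adjusted p = 0.0946). At an unadjusted p under 0.05, 2 of the 8 passed, against 31.3% of all genes tested. In the Pou2af1-labelled arrays Trem2 was 1.01 above scramble. Of 15 monocyte and macrophage genes 6 rose and 2 fell with Ebf1 shRNA (median 0.42), in a comparison where 14.4% of all genes were called. The 15 include Adgre1, which was above the dim line only in the Pou2af1-labelled arrays. The mean over the whole list was 9.75 and 9.65 with scramble, 10.16 and 10.23 with Ebf1 shRNA and 10.52 and 10.48 in the Pou2af1-labelled arrays. Ccr2, the monocyte chemokine receptor, was among the 6 that rose, by 1.05 ± 0.15 (adjusted p = 0.00909). Interferon-induced genes split the groups differently: all 11 tested fell with Ebf1 shRNA (median -1.04), and in the Pou2af1-labelled arrays all 11 were above scramble (median 1.07). The mean of that list was 11.08 and 11.04 with scramble, 10.14 and 10.09 with Ebf1 shRNA and 12.13 and 12.16 in the Pou2af1-labelled arrays. The part of these shifts in the members' values was not tested.

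**Figure D3:**
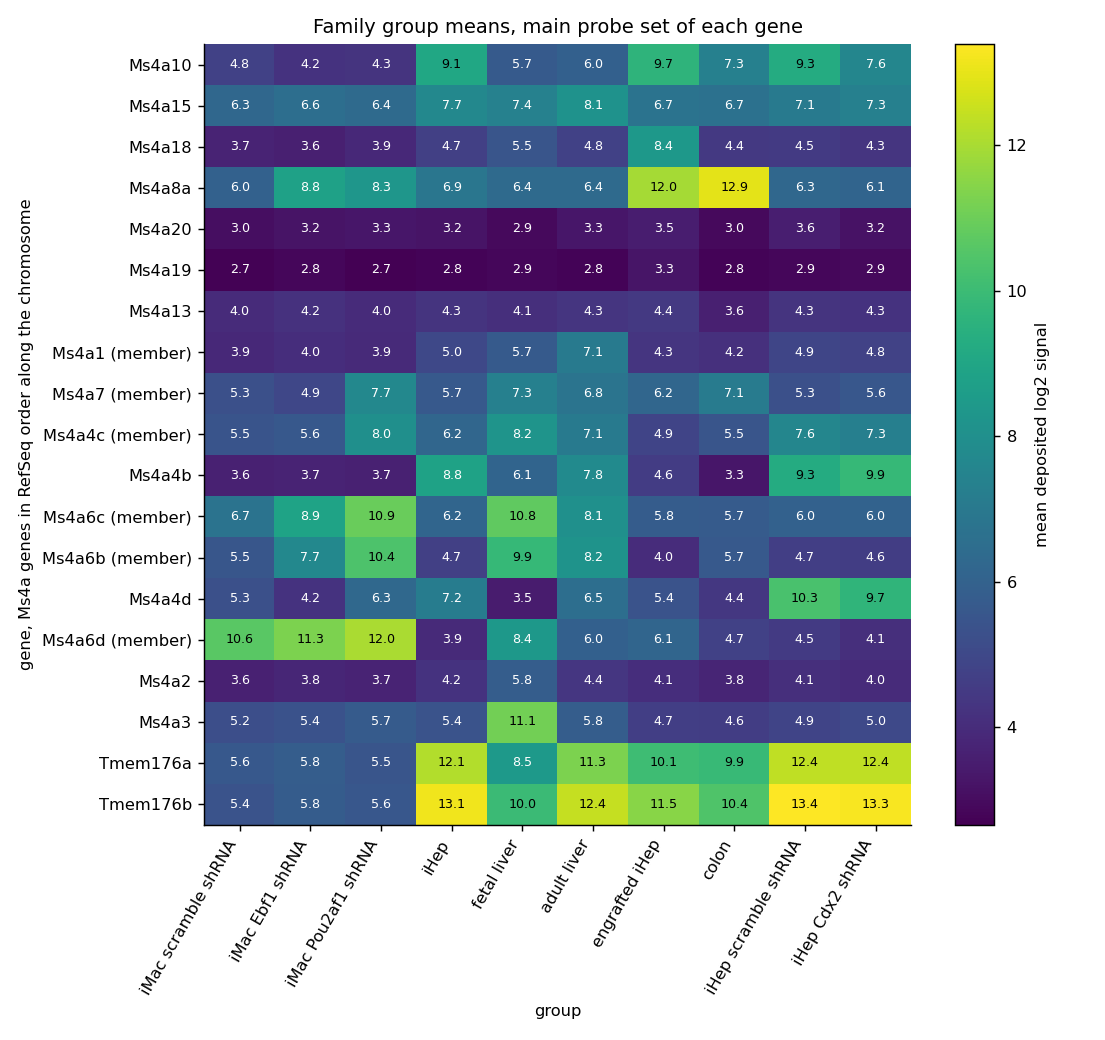
Mean log2 signal of the brightest probe set of 19 MS4A and Tmem176 genes (rows, in RefSeq order along chromosome 19 with the Tmem176 pair last) in the 10 groups (columns), printed in each cell and shaded by level. Ms4a6b and Ms4a6c are bright in iMacs with either targeting shRNA and in both livers, Ms4a6d in all iMac groups and fetal liver, Ms4a8a in colon and engrafted iHeps, Ms4a10, Ms4a4b and the Tmem176 pair in iHeps.

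Fetal liver was compared with adult liver in a model of 11 arrays (iHep, engrafted iHep, both livers and colon), in which all 6 members passed the filter, Ms4a1 only through the adult liver arrays. Ms4a1 is therefore left out of the counts in the comparisons with adult liver, and kept in those of engrafted iHeps. 4 of the other 5 members were higher in fetal liver and none lower, where limma called 49.3% of 15262 genes. Ms4a6c was higher by 2.69 ± 0.55 (adjusted p = 0.00239), Ms4a6d by 2.41 ± 0.81 (adjusted p = 0.032), Ms4a6b by 1.67 ± 0.39 (adjusted p = 0.00515) and Ms4a4c by 1.13 ± 0.36 (adjusted p = 0.0243). Ms4a7 did not pass (0.53 ± 0.82, adjusted p = 0.631). In the limma fit of single probe sets, the second of Ms4a6c went the other way without passing (-0.54 ± 0.31, adjusted p = 0.188). The second probe sets of Ms4a4c (2.43 ± 0.77, adjusted p = 0.0251) and Ms4a6d (2.09 ± 0.69, adjusted p = 0.0295) passed. Ms4a1 differed by -1.39 ± 0.57 and is given without a test. The median was 1.67 over the 5 members and 0.16 over all genes. In bulk samples such as these, fewer cells of a type and less RNA per cell cannot be told apart.

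Marker lists are set here beside the 49.3% of all genes called in this comparison. Of 9 granulocyte genes all 9 were higher in fetal liver, of 16 monocyte and macrophage genes 4 were higher and 1 lower, and of 11 Kupffer cell genes 1 was higher and 3 lower. For the monocyte and macrophage list and the Kupffer cell list the share called was below that of all genes. Vsig4, the partner of Ms4a6d on Kupffer cells, was lower in fetal liver (-4.57, adjusted p = 0.00045), opposite in direction to Ms4a6d. Their part in the members' differences was not tested. The Ms4a4c call was lost without fetal liver replicate 2 (adjusted p = 0.166) or adult liver replicate 2 (0.185), and the Ms4a6d call without fetal liver replicate 1 (0.0924) or 2 (0.132) or adult liver replicate 2 (0.22). Among relatives, Ms4a3, a gene of granulocyte and monocyte progenitors, read 11.04 and 11.18 in fetal liver and 6.04 and 5.64 in adult liver, a difference of 5.26 ± 0.30 (adjusted p = 1.18e-06). A probe set of Ms4a2, the IgE receptor beta chain, read 6.97 and 6.47 in fetal liver and was 2.96 ± 0.40 above adult liver. It was above the dim line only in the fetal liver arrays, so no test is given.

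Adult liver against colon crypts gave 3 of the same 5 members higher in liver and none lower, among 60.7% of genes called. Ms4a6b differed by 2.53 ± 0.39 (adjusted p = 0.000358), Ms4a6c by 2.33 ± 0.55 (adjusted p = 0.00451) and Ms4a4c by 1.56 ± 0.36 (adjusted p = 0.00384). Ms4a6d (1.23 ± 0.81, adjusted p = 0.214) and Ms4a7 (-0.30 ± 0.82, adjusted p = 0.765) did not pass. In the limma fit of single probe sets, the second of Ms4a4c did not pass (1.55 ± 0.77, adjusted p = 0.105), while the second of Ms4a6c did (1.20 ± 0.31, adjusted p = 0.00695). The median of the 5 was 1.56, against -0.20 over all genes. Ms4a1 read 8.09 and 6.11 in liver and a dim 4.24 and 4.06 in colon. The colon donors carry the Rag2gammac-/- genotype and the liver donors do not. Tissue and genotype therefore cannot be told apart here for any member, the B cell gene Ms4a1 included. Of 11 Kupffer cell genes 9 were higher in liver, and of 16 monocyte and macrophage genes 8 were higher and 2 lower.

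Cultured iHeps had less of most members than adult liver. Of the same 5 members 4 fell and none rose, among 55.9% of genes called. Ms4a6b differed by -3.48 ± 0.36 (adjusted p = 2.45e-05), from 8.77 and 7.62 in adult liver to 4.59, 4.86 and 4.68. Ms4a6d differed by -2.02 ± 0.74 (adjusted p = 0.0405), Ms4a6c by -1.89 ± 0.50 (adjusted p = 0.00909) and Ms4a4c by -0.87 ± 0.33 (adjusted p = 0.0455). Ms4a7 did not pass (-1.14 ± 0.75, adjusted p = 0.225). In the limma fit of single probe sets, the second of Ms4a4c did not pass (-1.49 ± 0.71, adjusted p = 0.101). The second probe sets of Ms4a6c (-1.04 ± 0.29, adjusted p = 0.0105) and Ms4a6d (-2.01 ± 0.63, adjusted p = 0.0207) did. The median of the 5 was -1.89, against 0.26 over all genes. Ms4a1 was dim in iHeps, at 4.73 to 5.29. Only the Ms4a6b call held without adult liver replicate 1, when the others were -1.18 for Ms4a6c (adjusted p = 0.112), -1.21 for Ms4a6d (0.312) and -0.39 for Ms4a4c (0.392). The Ms4a4c and Ms4a6d calls were also lost when any 1 of the 3 iHep lines was left out (adjusted p = 0.0693 to 0.0974 and 0.0671 to 0.0934).

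Receptor and signalling genes and leukocyte lists were lower in iHeps too, where 55.9% of all genes were called. Of the 8 receptor and signalling genes 5 were lower in iHeps. They were the signalling adaptors Tyrobp (-4.90 ± 1.02, adjusted p = 0.00232) and Fcer1g (-3.40 ± 0.74, adjusted p = 0.00293), Clec7a (-3.32 ± 0.45, adjusted p = 0.00015), the kinase Syk (-1.43 ± 0.30, adjusted p = 0.00256) and the adaptor Lat (-0.68 ± 0.23, adjusted p = 0.0302). All 11 Kupffer cell genes fell, as did 11 of 16 monocyte and macrophage genes, with 1 higher. Ptprc was at 3.36 to 3.50 in the 3 iHep arrays, which is dim, and at 10.96 and 9.39 in adult liver. The part of leukocyte content in the members' differences was not tested. The relative Ms4a10 went the other way: it read 9.08 ± 0.07 (SD, n = 3) in iHeps and was 3.11 ± 0.21 above adult liver (adjusted p = 1.76e-06).

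**Figure D4:**
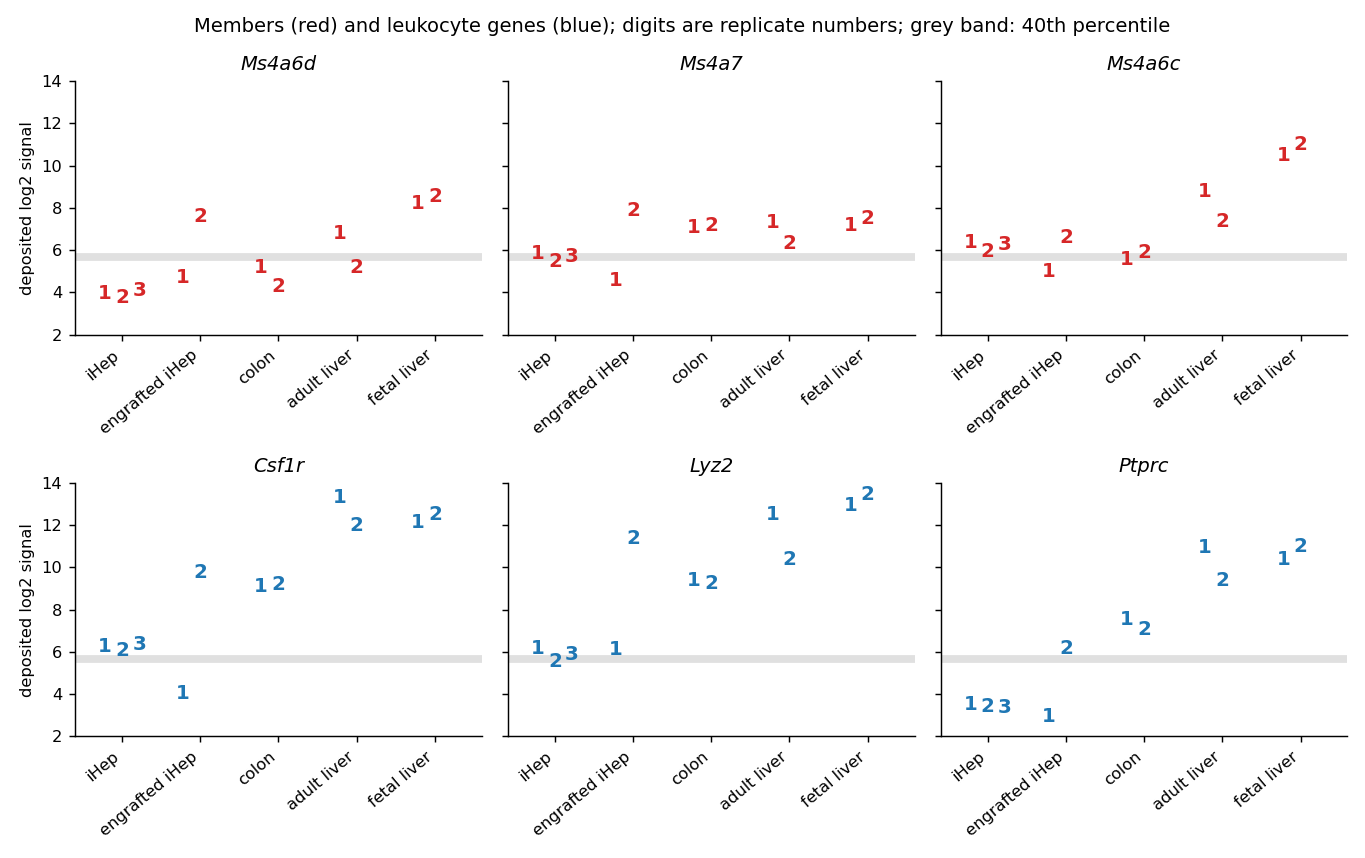
Log2 signal (y axis) of Ms4a6d, Ms4a7 and Ms4a6c in red and of the leukocyte genes Csf1r, Lyz2 and Ptprc in blue in the arrays of 5 groups (x axis: iHep, engrafted iHep, colon, adult liver, fetal liver); each digit is the replicate number of an array and the grey band spans the 40th percentiles. For all 6 genes engrafted replicate 2 lies above replicate 1 and adult liver replicate 1 above replicate 2, for example Ms4a7 at 7.88 against 4.56 in the engrafted pair.

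Engraftment changed 2 of 6 members, 1 in each direction, among 48% of genes called. Ms4a4c was lower in engrafted than in cultured iHeps (-1.33 ± 0.33, adjusted p = 0.00802), though its second probe set gave -0.61 (adjusted p = 0.5) and the call was lost without engrafted replicate 1 (-1.10, adjusted p = 0.0502). Ms4a6d was higher by 2.20 ± 0.74 (adjusted p = 0.0334). It read 3.97, 3.76 and 4.11 in culture and 4.71 and 7.58 after engraftment, so its rise rests on replicate 2: without that array it was 0.76 (adjusted p = 0.292), and it was also lost without any 1 of the 3 cultured lines (adjusted p = 0.059 to 0.0801). Ms4a7 changed direction with the array left out, at -1.11 without replicate 2 and 2.21 without replicate 1, against 0.55 with both (adjusted p = 0.568). With either array left out, 1 engrafted array remains, so only the sizes are given for Ms4a7. Which members stood apart from culture depended on which engrafted array was kept. Ms4a6b (-0.67, adjusted p = 0.145), Ms4a6c (-0.37) and Ms4a1 (-0.66, dim in both groups) did not pass. The median was -0.51 over the 6 members and -0.22 over all genes.

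Replicate 2 of the engrafted cells was also the array with monocyte and macrophage genes at a mean of 7.74 against 6.41 in replicate 1, with 13 against 10 of 16 above the dim line, and with fibroblast genes at 10.72 against 6.92. Both arrays were sorted for GFP. Their part in the member values was not tested. Against colon, 1 of 6 members differed, among 16.8% of genes called: Ms4a6b was lower in engrafted iHeps (-1.63 ± 0.39, adjusted p = 0.0207), with dim values of 3.66 and 4.42 against 5.52 and 5.81. That call was lost without engrafted replicate 1 (adjusted p = 0.0669), colon replicate 1 (0.0844) or colon replicate 2 (0.13). Without engrafted replicate 2 the Ms4a7 difference from colon was -2.55, and without engrafted replicate 1 that of Ms4a6d was 2.85. Each of these 2 fits keeps 1 engrafted array, so only the sizes are given.

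Several relatives also differed between engrafted and cultured iHeps. Ms4a8a read 7.03, 7.32 and 6.30 in cultured iHeps, 12.33 and 11.59 after engraftment and 12.95 in both colon arrays, a rise of 5.07 ± 0.32 (adjusted p = 3.54e-06). Ms4a18 read 9.15 and 7.64 after engraftment, against a dim 4.90, 4.44 and 4.75 in culture and 4.43 ± 0.15 (SD, n = 2) in colon. It passed the filter only through the engrafted arrays, so no test is given. Ms4a4b fell from 10.06, 8.47 and 8.01 to a mean of 4.57 ± 1.31 (n = 2), a difference of -4.27 ± 0.71 (adjusted p = 0.000955). Tmem176a (-2.07 ± 0.35, adjusted p = 0.00112) and Tmem176b (-1.66 ± 0.27, adjusted p = 0.000824), membrane proteins related to MS4A, fell as well. Of 9 colon epithelium genes, 8 rose in the same comparison, where 48% of all genes were called.

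In iHeps with the Cdx2 shRNA, 2 members, Ms4a4c and Ms4a6c, passed the filter other than through 1 group. Neither passed the limma test, either adjusted or at an unadjusted p under 0.05. Of 13650 genes, 2.21% passed after adjustment and 2139 genes before it. Cdx2 is a homeobox factor of intestinal epithelium. Ms4a6c differed by 0.03 (adjusted p = 0.944) and Ms4a7 by 0.27, both near the dim line. Ms4a7 passed the filter only through the Cdx2 shRNA arrays, so no test is given for it. Ms4a4c read 7.42, 7.60, 7.71 and 7.67 with scramble shRNA and 6.91, 6.93, 7.72 and 7.59 with Cdx2 shRNA (-0.31 ± 0.19, adjusted p = 0.493). Its second probe set read 6.31, 6.61, 7.03 and 6.94 with scramble and 4.98, 4.79, 6.47 and 6.75 with Cdx2 shRNA (-0.98 ± 0.43, adjusted p = 0.355). Both probe sets were low in the same 2 arrays, Cdx2 replicates 1 and 2, and the groups overlapped. Taken as pairs by replicate number, the second probe set was lower with Cdx2 shRNA in 4 of 4 pairs, and with that number as a block it had an SE of 0.26 and an adjusted p of 0.0928 in the limma fit of single probe sets. The blocked fit of the brightest probe set gave an adjusted p of 0.212. Those 2 arrays had the higher means of interferon-induced genes, 9.20 and 9.13 against 7.99 and 8.02 in Cdx2 replicates 3 and 4. Of the 11 interferon-induced genes 5 fell with Cdx2 shRNA.

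Ms4a4c was higher in the transduced than in the untransduced iHeps by either probe set. It read 6.10 to 6.34 in the 3 untransduced lines and 7.42 to 7.71 in the 4 scramble arrays, and by the second probe set 2.84 to 4.30 and 6.31 to 7.03. These groups were not compared in a model, and they differ in lentivirus, puromycin and possibly in the line used. The interferon-induced list had means of 7.39, 9.46 and 8.99 in the untransduced lines and 9.78 to 9.89 in the scramble arrays. The neighbouring genes Ms4a4b and Ms4a4d were bright in the untransduced lines too, Ms4a4b at 10.06, 8.47 and 8.01 and Ms4a4d at 8.69 and 9.03 in replicates 2 and 3, but at a dim 3.82 in replicate 1. Ms4a4b was 9.07 to 9.36 with scramble and 9.71 to 10.02 with Cdx2 shRNA, a rise of 0.59 ± 0.10 (adjusted p = 0.0273). That call was lost without any 1 of the scramble arrays (adjusted p = 0.06, 0.0791, 0.0601 and 0.0858) or without Cdx2 replicate 2 (0.0518) or 3 (0.0614). Ms4a4d read 10.20, 9.96, 10.59 and 10.46 with scramble and 9.63, 9.31, 9.90 and 9.90 with Cdx2 shRNA (-0.62 ± 0.17, adjusted p = 0.124), and it passed with the replicate number as a block (adjusted p = 0.0118). Ms4a10 read 9.41, 9.17, 9.43 and 9.09 with scramble and 6.79, 6.98, 8.35 and 8.18 with Cdx2 shRNA, a lower level (-1.70 ± 0.34, adjusted p = 0.0409). It was lost without any 1 of the scramble arrays (adjusted p = 0.107 to 0.118) or without Cdx2 replicate 1 (0.0577) or 2 (0.111).

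**Figure D5:**
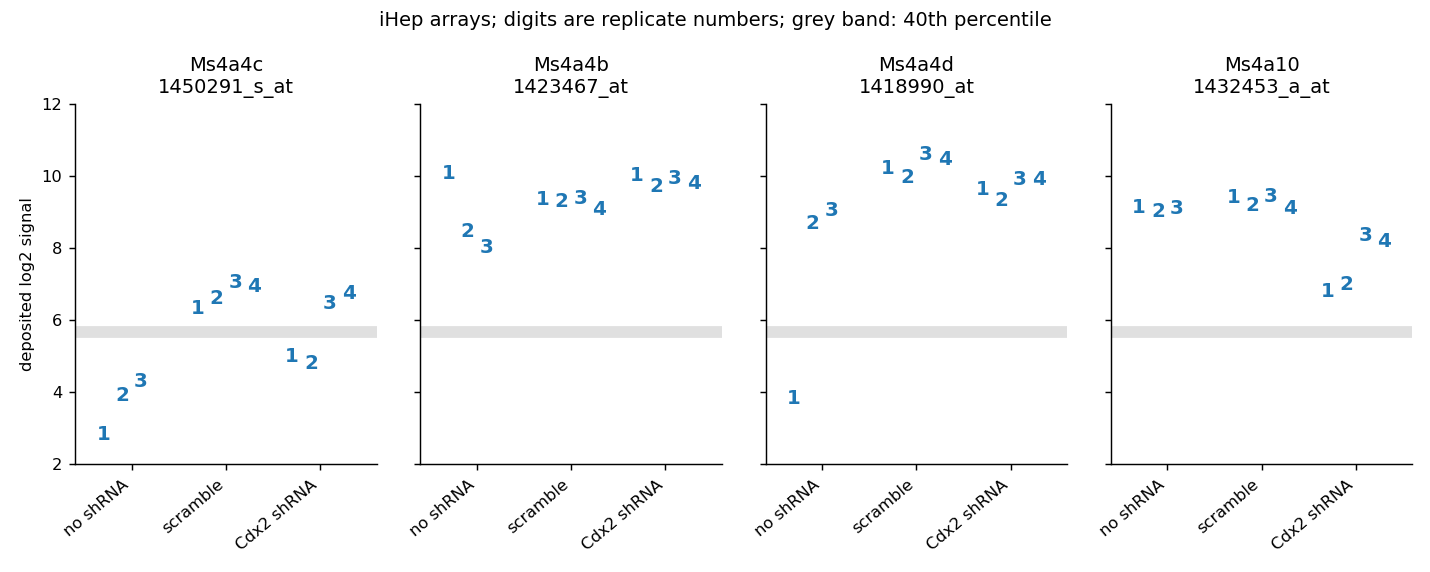
Log2 signal (y axis) of the second Ms4a4c probe set, Ms4a4b, Ms4a4d and Ms4a10 in iHeps with no shRNA, scramble shRNA and Cdx2 shRNA (x axis); each digit is the replicate number of an array and the grey band spans the 40th percentiles. Ms4a10 is lowest in Cdx2 replicates 1 and 2, the second Ms4a4c probe set reads 4.98 and 4.79 in the same arrays, and Ms4a4d of untransduced replicate 1 (3.82) lies below the other 2 lines (8.69 and 9.03).

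Genes whose pattern over the 10 group means was most like each member's were read as a description among 9864 genes with a range of at least 2. The means share arrays and platform, and 10 points allow no test. Ms4a6b and Ms4a6c were each other's nearest gene (r = 0.97, rho = 0.79). Ms4a6b was next to P2ry13 (r = 0.93), Btnl9 (0.92), Ccr2 (0.91) and Ighm (0.90), and Ms4a6c to Ccr2 (0.96), Irf4 (0.94), Slamf1 (0.93) and Cd300c2 (0.91). Ms4a6d was next to Tifab (1.00), Lcp2, Mef2c, Pou2af1 and Pik3cg (each 0.99). Ms4a1 was next to Gpihbp1 (1.00), Acot3, Spata9, Lin52 (each 0.99) and F11 (0.98), and no leukocyte gene of the fixed lists was among its 5. Ms4a7 was next to P2ry13 (0.83) and Slamf7 (0.83), and Ms4a4c to Mm2pr and Apod (each 0.91). Between members, Ms4a4c and Ms4a6d had r = 0.03, Ms4a6d and Ms4a7 0.12, and Ms4a6b and Ms4a6d 0.66.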

How the data were processed

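RNA of 25 samples was amplified with a NuGEN kit from 100 ng and hybridised to Affymetrix 430 2.0 mouse arrays, per the labels' protocols. The authors deposited log2 values after RMA normalisation, per the submitters' processing notes; the version of RMA is not given in the sources used here. Deposited values ran from 2.05 to 15.11, array medians from 6.11 to 6.30, and no columns were identical. Probe sets were named through the platform annotation: 34945 of 45101 had 1 symbol, 932 several, 9160 none listed, and 64 were controls. A gene was read by its probe set of highest mean over all arrays and tested where it was above its array's 40th percentile in at least 2 arrays of the model.

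Differences were fitted with limma 3.58.1 (lmFit and eBayes, R 4.3.3) in 3 models, the 6 iMac arrays, the 11 arrays of iHep, engrafted iHep, livers and colon, and the 8 iHep shRNA arrays, with two-sided tests, Benjamini-Hochberg adjustment over all genes tested and a threshold of 0.05. Errors are SE for differences and SD for levels, and the number of arrays limits the precision. The procedure was tested on simulated data. The members and the gene lists were chosen with earlier results of these data known. Named genes were the members, the other family genes, up to 4 called and 2 uncalled genes of each list by size, the shRNA targets and the 5 nearest genes of each member. Ptprc, Csf1r, Adgre1, Alb, Vsig4 and Clec4f were named as markers of the sample. Same-numbered arrays of the Cdx2 experiment deviated together (r = 0.53, 0.32, 0.58 and 0.44), which the labels do not explain, and were taken as pairs for a fit with the replicate number as a block. Promoter alignments (match 2, mismatch -3, gap -5 and -2) used Biopython 1.88. 10 settings were varied besides leaving out each array. In groups of 2 arrays that leaves a single array, and the spread then comes from the other groups.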

Additional observations from a re-analysis of the deposited data

Results flagged for a closer look

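Among 60 combinations of a family probe set with a group of 4 arrays, which here are only the iHep shRNA groups, 3 values stood apart from the other 3 of their group by Dixon's criterion. Chance gives about 1 in 20, which is the share seen here. The values lie in 2 arrays. The Ms4a2 probe set read 4.37 in scramble shRNA replicate 2 and at most 4.03 in the others. The second Ms4a6b probe set read 2.68 in Cdx2 shRNA replicate 1 and 2.98 to 2.99 in the others. Ms4a8a read 5.80 in scramble shRNA replicate 2 and 6.37 to 6.45 in the others.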

How the results depend on the processing

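These counts are over every member fitted. They include Ms4a1, which the report leaves out of its counts in the comparisons with adult liver, and the members given above without a test. Over the settings tried, the members called numbered 2 to 3 for Ebf1 shRNA, 3 to 4 for adult liver against colon and 0 for Cdx2 shRNA. For iHeps against adult liver the number fell from 5 to 3 with the mean of all probe sets, with median-centred arrays and with the replicate number as a block, and was 1 to 5 with an array left out. For engrafted against cultured iHeps it fell from 2 to 0 with the mean of all probe sets or without shared probe sets, to 1 with the block, was 3 in 1 model of all arrays (Ms4a6b gained, adjusted p = 0.0383), and was 1 to 2 with an array left out. For engrafted iHeps against colon it fell from 1 to 0 with the mean of all probe sets and changed with an array left out. For fetal against adult liver, 4, it was 3 without shared probe sets or with the block, and it changed with an array left out. In 1 model of all arrays it was 5, the gain being Ms4a1 (-1.39). Ms4a1 passed the filter only through adult liver, so that call is not a test. Ms4a7 in engrafted against cultured iHeps reversed to -1.11 without engrafted replicate 2 and was 2.21 without replicate 1. The Ms4a6d call with Ebf1 shRNA was lost when all 25 arrays shared 1 model (adjusted p = 0.713), and the one in fetal liver with the block (0.0603). A fit of single probe sets with the block, chosen after seeing the data, left the second Ms4a4c probe set uncalled with Cdx2 shRNA (adjusted p = 0.0928). The cause of these changes was not tested. The members' median difference in the Pou2af1-labelled arrays, 2.53, was 2.46 unfiltered, 2.68 with the mean of all probe sets, 3.30 without shared probe sets, 3.46 with every probe set and 2.54 to 2.77 with an array left out. For Ebf1 shRNA against those arrays, -2.37, it was -2.21 unfiltered, -1.84 with the mean, -2.73 with every probe set and -2.47 to -2.13 with an array left out.

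Genes called numbered 1794 for Ebf1 shRNA but 1120 unfiltered, 2856 with a trended robust fit, 475 in 1 model of all arrays (305 higher, 170 lower) and 507 to 825 with an array left out. They numbered 2557 for engrafted iHeps against colon but 3859 with every probe set, 5474 in 1 model and 774 and 779 without colon replicate 1 and 2. They numbered 302 for Cdx2 shRNA but 73 in 1 model, 760 with the block and 56 to 224 with an array left out. Repeated quantile normalisation moved adult liver against colon from 3788 higher and 5477 lower to 4653 and 4439, and its median over all genes from -0.20 to 0.08. The iHep against adult liver median moved from 0.26 to 0.14, and to 0.42 with centring. Same-numbered arrays did not deviate together in the iMac and liver models (r = -0.15 to 0.10), so their block is a comparison of numbers only; among members the block changed no call with Ebf1 or Cdx2 shRNA. Dim members have no measured fold.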

Other observations

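The Tmem176 pair, membrane proteins related to MS4A that lie elsewhere in the genome, was brightest in the scramble shRNA iHeps. Tmem176a was at 12.13 ± 0.25 in iHeps (SD, n = 3), 11.27 ± 0.51 in adult liver (n = 2), 8.46 ± 0.74 in fetal liver (n = 2) and 5.63 ± 0.32 in scramble shRNA iMacs (n = 2). Tmem176b was at 13.15 ± 0.21, 12.44 ± 0.48, 9.97 ± 0.27 and 5.43 ± 0.34 in the same groups. Both were lower in fetal than in adult liver, by limma, with differences of -2.81 ± 0.39 for Tmem176a (adjusted p = 0.000203) and -2.47 ± 0.29 for Tmem176b (adjusted p = 8.3e-05), the direction opposite to that of Ms4a6b, Ms4a6c, Ms4a6d and Ms4a4c. Other relatives shared parts of this pattern. Ms4a4b and Ms4a4d were also brightest in an iHep shRNA group. In the limma fit of single probe sets they were lower in fetal than in adult liver without passing (-1.68, adjusted p = 0.0993, and -3.06, adjusted p = 0.0953). Ms4a15 was lower there too (-0.75, adjusted p = 0.0385). Its mean was above the dim line in every group, from 6.26 ± 0.41 in scramble iMacs (n = 2) to 8.14 ± 0.25 in adult liver (n = 2). Ms4a13, Ms4a19 and Ms4a20 were dim in all 25 arrays.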
